A study of Mus musculus with 20 samples.

Results

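Pnpt1, Baiap2l1, Igf1, Fam135a, Slc8a1 and Pitpnc1 are 6 genes that were well expressed in fetal and newborn male germ cells of mice with 1 working copy of Tex15 and were higher in cells with none. They were chosen by their measured levels at 2 ages, for lying above 10 CPM (counts-per-million, taken over gene counts) in heterozygous cells at embryonic day 18.5 (e18.5) or postnatal day 2 (d2) and for being raised in knockout. Over all genes, 624 were called higher in knockout at e18.5 or d2. Of these, 331 had a heterozygous mean above 10 CPM at e18.5 or d2, among them all 6 listed genes. The age of that level need not be the age of the call. The whole series holds 23853 gene symbols common to its 3 tables. The genes nearest the level limit were Dcn just inside, with a highest heterozygous mean of 10.1 CPM, and Il12rb2 just outside, with 9.91 CPM. Dcn was called at e18.5 only, where its heterozygous mean was 1.81 CPM.

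The study sequenced total RNA of green fluorescent male germ cells sorted by flow, from Tex15-/- (knockout) and Tex15+/- (heterozygous) mice of mixed strain background. At embryonic day 16.5 (e16.5) and at e18.5 there were 3 libraries per genotype, and at d2 there were 4 per genotype, 20 in all. No library came from a wild type, so each knockout group is set against cells that already lack 1 copy of Tex15. The labels do not say which transgene gave the fluorescence, nor how many animals each library came from. The design text calls the replicates biological, but nothing says that they were separate animals, so p-values measure only the spread between these libraries.

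The libraries held 14328826 to 31496510 counts, of which 7775062 to 14202847 were in genes, and each of the 6 genes had 98 to 7885 counts in every library. Tex15, a germ cell gene needed for male fertility, lay at 1.75 to 4.83 CPM in knockout libraries of both embryonic ages, against 1310 to 1909 CPM in heterozygous ones. At d2 it lay at 2.07, 2.51 and 2.62 CPM in knockout replicates 1, 3 and 4 but at 104 CPM in knockout replicate 2, against 631 to 1024 CPM in heterozygous libraries. Whether that library carries the right label could not be settled, so the calls at d2 were also made without it. Without it edgeR called 573 genes at d2. Of the genes outside the 6 that are named below as called at d2, Dazl, Slc24a2, Sox9 and Vwf were still called. For the others, Ifi203 among them, this is not given. All 13 germ cell markers, led in level by genes such as the translational regulator Dazl, had counts at each age, and their summed level was 5938 to 8457 CPM in knockout and 6230 to 8251 CPM in heterozygous libraries of the embryonic ages. At d2 it was 4675 to 5999 CPM in knockout, with the low value in replicate 2, and 4471 to 4920 CPM in heterozygous libraries. Of 13 tested at d2, 1 was called higher, Dazl, where 2.03% of all genes were, and the median log2 fold change of the 13 was -0.05 (0.01 without knockout replicate 2). Dazl lay at 2456 ± 643 CPM in knockout and 1610.4 ± 115 CPM in heterozygous cells (SD, n = 4; adjusted p = 0.0349, edgeR). In bulk RNA, fewer cells of a type and less RNA per cell cannot be told apart.

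The 6 genes are not known as members of 1 pathway. Igf1 encodes insulin-like growth factor 1, a secreted ligand that acts through the receptor Igf1r. Pnpt1 encodes polynucleotide phosphorylase, an exoribonuclease that degrades RNA inside mitochondria. Slc8a1 encodes a sodium-calcium exchanger of the plasma membrane, best known from heart muscle. Pitpnc1 encodes a protein that carries phosphatidylinositol between membranes, and Baiap2l1 an I-BAR domain protein that joins curved membrane to the actin cytoskeleton. Tex15 is known as a factor of retrotransposon silencing in fetal male germ cells, at the age when DNA methylation is laid down again.

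The start regions of the genes were read first, to see whether the 6 share a promoter type. RefSeq promoter windows (build GRCm38.p6, 250 bases before to 50 bases after the annotated start) were found for all 6 by symbol. The counting build was mm9, and the tables hold no coordinates. In the sequences below, capitals mark CG dinucleotides, the bases at which mammalian DNA is methylated. They are shown for Fam135a and Igf1, the pair whose levels, each relative to its own mean, were most alike across libraries, and for Pitpnc1 and Slc8a1, the 2 with the largest rise at e18.5. The windows lie at chr1:24100292-24100591 (minus strand), chr10:87860861-87861160 (plus strand), chr11:107470671-107470970 (minus strand) and chr17:81738338-81738637 (minus strand).
Fam135a: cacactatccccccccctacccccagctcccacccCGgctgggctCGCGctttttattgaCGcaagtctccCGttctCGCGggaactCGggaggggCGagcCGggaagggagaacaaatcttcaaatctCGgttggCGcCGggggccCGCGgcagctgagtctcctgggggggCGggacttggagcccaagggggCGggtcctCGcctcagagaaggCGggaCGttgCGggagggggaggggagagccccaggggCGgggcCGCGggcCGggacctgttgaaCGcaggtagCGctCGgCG
Igf1: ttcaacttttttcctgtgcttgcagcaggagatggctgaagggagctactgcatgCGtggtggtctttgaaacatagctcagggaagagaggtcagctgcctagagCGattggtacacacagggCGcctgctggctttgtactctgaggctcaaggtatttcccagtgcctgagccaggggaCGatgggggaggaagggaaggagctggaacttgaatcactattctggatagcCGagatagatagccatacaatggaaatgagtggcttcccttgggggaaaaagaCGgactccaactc
Pitpnc1: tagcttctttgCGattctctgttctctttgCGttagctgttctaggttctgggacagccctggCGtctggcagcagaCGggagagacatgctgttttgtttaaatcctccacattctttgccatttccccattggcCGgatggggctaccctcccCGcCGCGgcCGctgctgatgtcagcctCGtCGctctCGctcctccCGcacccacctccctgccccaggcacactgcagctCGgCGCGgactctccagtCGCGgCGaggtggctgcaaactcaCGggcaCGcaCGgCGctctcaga
Slc8a1: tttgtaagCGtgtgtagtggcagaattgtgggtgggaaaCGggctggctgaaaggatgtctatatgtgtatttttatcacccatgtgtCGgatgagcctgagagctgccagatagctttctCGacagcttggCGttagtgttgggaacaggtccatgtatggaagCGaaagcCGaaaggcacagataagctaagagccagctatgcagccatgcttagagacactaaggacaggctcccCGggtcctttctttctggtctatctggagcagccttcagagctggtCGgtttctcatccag

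The Fam135a window held 29 CG dinucleotides and the Pitpnc1 window 23, while the Slc8a1 window held 9 and the Igf1 window 6. The windows of Baiap2l1 (chr5:144358063-144358362, minus strand) and Pnpt1 (chr11:29130494-29130793, plus strand) held 25 and 15. Over 32851 windows of this length the median was 7 and the quartiles were 3 and 20. The genes thus ran from rich in CG (Fam135a, with more in only 11.7% of windows) to slightly under the median (Igf1, with more in 52.1%). Of 4 motifs searched on both strands, TATAAA was in 0 of 6 windows against 13.6% of all windows, and CACGTG, the E-box, in 0 of 6 against 7.15%. The GC box CCGCCC was in 3 of 6 (Pnpt1, Baiap2l1, Fam135a) against 35.7%, and TCCCGC, like the core of E2F sites, in 3 of 6 (Pnpt1, Fam135a, Pitpnc1) against 19.98%. All motifs but the first hold a CG themselves, and the E2F-like run can overlap a GC box. A motif found is only a run of letters in the window.

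**Figure D1:**
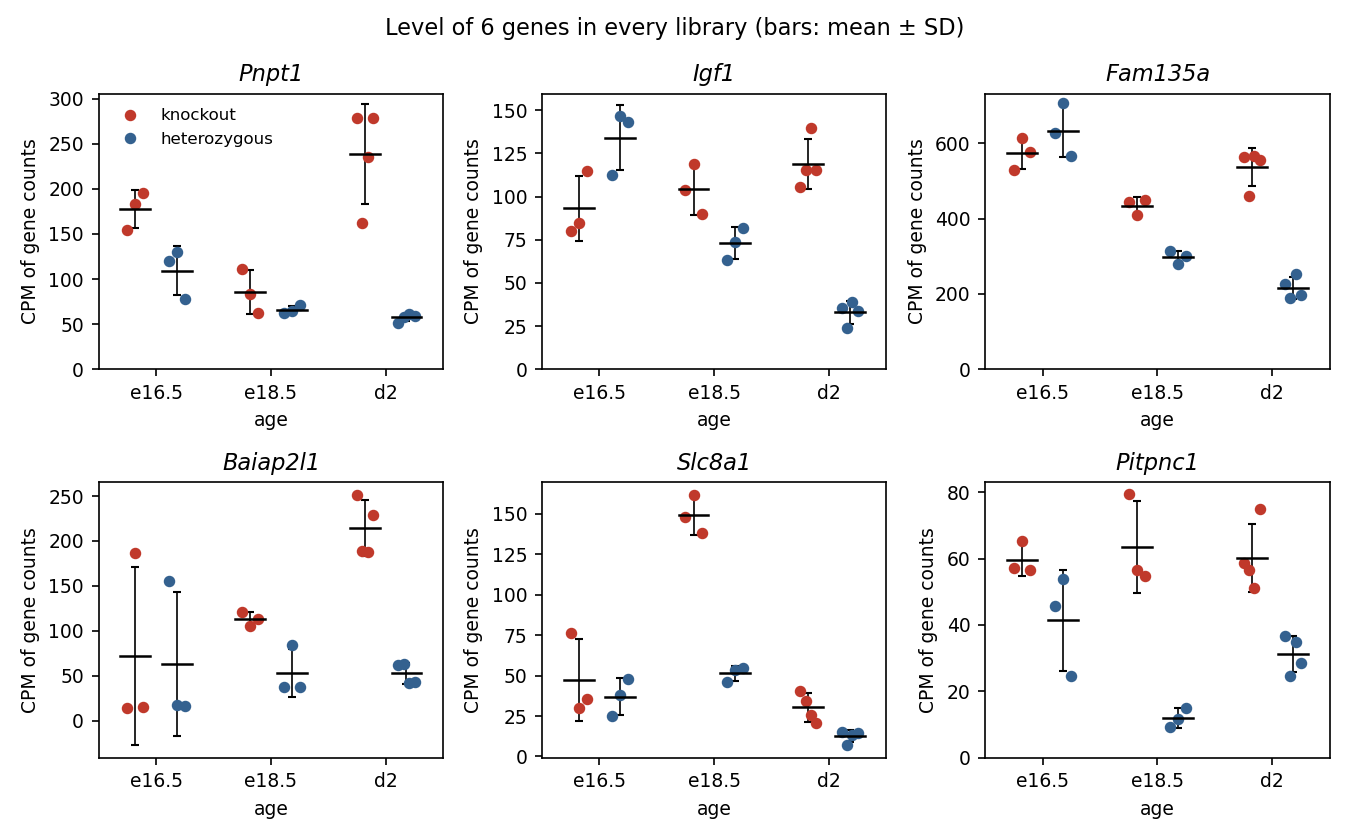
Level of each gene (CPM of gene counts, y axis) in every library at e16.5, e18.5 and d2 (x axis), with knockout in red and heterozygous in blue; each point is 1 library, and bars give the mean ± SD. At d2 all 4 knockout points lie above all 4 heterozygous points in each panel, while at e16.5 the points of Baiap2l1 split into 4 low libraries (14.3 to 17.8 CPM) and 2 high ones (187 CPM in knockout, 156 CPM in heterozygous).

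Because e18.5 and d2 chose the genes, their values there are a description. The edgeR fit called 4 of the 6 higher in knockout at e18.5, where 2.06% of all genes tested were called higher, and 6 of 6 at d2, where 2.03% were. The 4 at e18.5 were Baiap2l1, Fam135a, Slc8a1 and Pitpnc1, and they were called at both ages, as were 24 of the 331 genes that meet the level and direction limits. Knockout libraries lay above every heterozygous library for 5 of 6 genes at e18.5, as for 9.27% of all genes tested, and for 6 of 6 at d2, as for 5.55%. In the opposite direction 0 of 6 were called, where 0.271% of all genes were at e18.5 and 0.776% at d2, and 0 of 6 lay wholly below the heterozygous libraries, where 7.52% and 4.37% did. The call of Baiap2l1 at e18.5 was lost in 5 of the 6 fits that leave out a library (all but that without heterozygous replicate 2), and that of Fam135a without heterozygous replicate 2. A call of Igf1 at e18.5 was gained in some fit that leaves out a library. The call of Slc8a1 at d2 was lost without knockout replicate 1. Without knockout replicate 2 of d2, 6 of 6 were still called, with log2 fold changes of 0.98 to 2.20. DESeq2, no filter and 1 fit of all ages each left 3 calls at e18.5, without Baiap2l1, and 1 fit of all ages left 5 at d2, again without Baiap2l1. With the replicate number as a block there were 5 calls at e18.5, Igf1 being the added one, and 5 at d2, without Slc8a1.

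Igf1, the ligand of the group, was higher in every knockout library than in every heterozygous library at both e18.5 and d2, with the wider gap at d2. At d2 it lay at 105, 115, 139.7 and 116 CPM in knockout libraries, against 35.8, 23.8, 39.0 and 33.8 CPM in heterozygous libraries. All 4 knockout values lay far above the highest heterozygous value. At e18.5 it lay at 104, 119 and 89.8 CPM in knockout, against 63.5, 73.6 and 82.0 CPM in heterozygous libraries. The groups did not overlap at this age either, but the gap was small. The log2 fold change was 0.51 ± 0.15 (SE) at e18.5 and 1.85 ± 0.17 at d2.

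With age, Igf1 was lower at each later age in heterozygous cells and stayed near its starting level in knockout cells. In knockout cells its mean was 93.2 ± 19.0 CPM at e16.5 (SD, n = 3), 104 ± 14.6 at e18.5 (n = 3) and 119 ± 14.6 at d2 (n = 4). In heterozygous cells it was 134 ± 19.0, 73.0 ± 9.27 and 33.1 ± 6.58 CPM at the same ages. Between e16.5 and d2 its log2 change was 0.18 ± 0.17 (SE) in knockout cells and -2.17 ± 0.17 in heterozygous cells, where the median change of all 18619 genes tested was -0.0008 and -0.03. The heterozygous group at e16.5 and the 3 knockout groups overlapped in level, and heterozygous d2 libraries lay below all others. Each age has its own table of counts, so here and below age cannot be told apart from differences between tables.

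Among other genes of the insulin-like growth factor system 1 call was made at e18.5 and none at the other ages. Of 15 tested at e18.5, 1 was called higher, where 2.06% of all genes were. It was Pappa2, a protease that cuts the binding proteins of these ligands. It rose 1.75-fold in knockout, to 224 ± 17.8 CPM against 128 ± 16.9 CPM in heterozygous cells (SD, n = 3; adjusted p = 0.00117, edgeR). Over all genes the share with an unadjusted p under 0.05, to be set beside each such count here and below, was 7.73%, 11.3% and 16.2% in age order. At d2 edgeR called 0 of 16, with 2 at an unadjusted p under 0.05 and 0 by DESeq2. At e16.5 edgeR called 0 of 15, with 2 at an unadjusted p under 0.05 and 0 by DESeq2. The list's median log2 fold change was -0.06 at e18.5 and -0.09 at d2, against -0.01 and -0.02 over all genes. Without knockout replicate 2 of d2 it was -0.29 at d2, against -0.04 over all genes.

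Pnpt1, the mitochondrial exoribonuclease, separated the genotypes at d2 far more than at e18.5. Its d2 levels were 278, 162, 235 and 279 CPM in knockout libraries, against 51.9, 57.7, 61.8 and 58.8 CPM in heterozygous libraries. The lowest of the knockout values was that of replicate 2, the library with Tex15 at 104 CPM. At e18.5 it lay at 111, 83.8 and 62.7 CPM in knockout, against 62.6, 64.5 and 71.2 CPM in heterozygous libraries. These groups overlapped, and knockout replicate 3 lay among the heterozygous values. The log2 fold change was 0.38 ± 0.18 (SE) at e18.5 and 2.05 ± 0.16 at d2, and 2.20 at d2 without knockout replicate 2.

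Pnpt1 was lower at e18.5 than at e16.5 in both genotypes, and the genotypes lay farthest apart at d2. Its mean was 178 ± 21.1, 85.7 ± 24.1 and 239 ± 55.1 CPM at e16.5, e18.5 and d2 in knockout cells, and 109 ± 27.3, 66.1 ± 4.51 and 57.5 ± 4.14 CPM in heterozygous cells (SD, n = 3, 3 and 4). Between e18.5 and d2 the log2 change was 1.4997 ± 0.197 (SE) in knockout cells, or 1.65 without knockout replicate 2 of d2, and -0.18 ± 0.19 in heterozygous cells. The d2 and e16.5 knockout groups overlapped at the top of the order, and heterozygous d2 libraries lay lowest, just under the heterozygous e18.5 libraries. Of other genes of mitochondrial RNA decay and processing, the exosome included, edgeR called 0 of 27 at each of the 3 ages. In age order 0, 4 and 2 had an unadjusted p under 0.05, and DESeq2 called 0 at each age. Pnpt1 is also known as an interferon-induced gene, and of the interferon and double-stranded RNA sensing genes edgeR called 0 of 24, 0 of 25 and 0 of 19 at e16.5, e18.5 and d2. Of these, 1, 4 and 1 had an unadjusted p under 0.05, and DESeq2 called 0. The list does not hold every interferon-induced gene, and those outside it were not counted. Some genes outside it, named after their values were seen, were called higher in knockout by edgeR. Ifi203 was called at e18.5 and d2, Ifi44 and Samd9l at d2, and Herc6 at e18.5. They are examples and not a full count.

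Slc8a1, the sodium-calcium exchanger, peaked at e18.5. It lay at 148, 162 and 138 CPM in knockout, against 45.8, 53.2 and 54.9 CPM in heterozygous libraries at that age. All 3 knockout values lay above every other library of the series, the next being 76.4 CPM in an e16.5 knockout library. At d2 it lay at 40.5, 34.1, 25.9 and 20.8 CPM in knockout, against 15.3, 6.91, 13.05 and 14.8 CPM in heterozygous libraries. The level was thus low in both genotypes at d2, without overlap between them. The log2 fold change was 1.54 ± 0.14 (SE) at e18.5 and 1.28 ± 0.28 at d2. Between e18.5 and d2 its log2 change was -2.28 ± 0.29 (SE) in knockout cells, or -2.33 without knockout replicate 2 of d2, and -2.03 ± 0.30 in heterozygous cells. Heterozygous d2 libraries lay below all others, and both e16.5 groups, heterozygous e18.5 and knockout d2 overlapped in chain.

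Among other calcium export and exchange genes 1 of 26 was called higher at d2, a share near that of all genes (2.03%). It was Slc24a2, a potassium-dependent sodium-calcium exchanger. It rose 3.09-fold, to 100.4 ± 24.9 CPM in knockout against 32.6 ± 12.2 CPM in heterozygous cells (SD, n = 4; adjusted p = 0.000805, edgeR). At e18.5 edgeR called 0 of 26, with 2 at an unadjusted p under 0.05, while DESeq2 called 1, Slc24a2. Of the 26, 0 were called at e16.5, with 5 at an unadjusted p under 0.05 and 0 by DESeq2. The list's median log2 fold change at d2 was -0.29, below that of all genes.

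Pitpnc1, the phosphatidylinositol carrier, had the largest rise of the group at e18.5. It lay at 79.5, 56.4 and 54.6 CPM in knockout, against 9.19, 11.7 and 15.1 CPM in heterozygous libraries, a 5.32-fold difference. At d2 it lay at 58.5, 56.6, 51.1 and 74.9 CPM in knockout, against 36.8, 24.8, 34.8 and 28.7 CPM in heterozygous libraries. No library crossed between genotypes at either age. The log2 fold change was 2.41 ± 0.22 (SE) at e18.5 and 0.95 ± 0.19 at d2.

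The heterozygous level of Pitpnc1 was lowest at e18.5, while the knockout level was similar at all 3 ages. Knockout means were 59.7 ± 4.88, 63.5 ± 13.9 and 60.3 ± 10.3 CPM at e16.5, e18.5 and d2, and heterozygous means were 41.4 ± 15.1, 12.0 ± 2.97 and 31.3 ± 5.55 CPM (SD, n = 3, 3 and 4). Between e16.5 and e18.5 the log2 change was -0.10 ± 0.23 (SE) in knockout cells and -1.96 ± 0.25 in heterozygous cells, and between e18.5 and d2 it was -0.05 ± 0.22 and 1.41 ± 0.24. The 3 knockout groups overlapped with each other, and the heterozygous e18.5 libraries lay below all others. Of the other phosphatidylinositol transfer genes edgeR called 0 of 21, 0 of 21 and 0 of 20 at e16.5, e18.5 and d2. Of these, 0, 1 and 4 had an unadjusted p under 0.05, and DESeq2 called 0.

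Fam135a, a gene with no well described role, varied little within groups and was higher in every knockout library at e18.5 and d2. Its d2 levels were 562, 460.1, 566 and 555 CPM in knockout libraries, against 227, 188, 253 and 196 CPM in heterozygous libraries. The low knockout value was again replicate 2, and without it the log2 fold change of 1.31 ± 0.12 (SE) became 1.38. At e18.5 it lay at 444, 409 and 449 CPM in knockout, against 314, 278 and 299.9 CPM in heterozygous libraries, a log2 fold change of 0.55 ± 0.11. Both ages were free of overlap. Its mean in knockout cells was 573 ± 41.4, 434 ± 21.8 and 536 ± 50.8 CPM at e16.5, e18.5 and d2, and in heterozygous cells 633 ± 69.99, 297 ± 17.9 and 216 ± 29.9 CPM (SD, n = 3, 3 and 4). By d2 it stood at 84.7% of the heterozygous e16.5 mean in knockout cells and at 34.2% in heterozygous cells. Both e16.5 groups and knockout d2 overlapped at the top of the order, knockout e18.5 lay below knockout d2, and the heterozygous e18.5 and d2 groups followed, each below the group before. Its paralog Fam135b was not called by edgeR at any age, with no unadjusted p under 0.05 and no call by DESeq2.

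**Figure D2:**
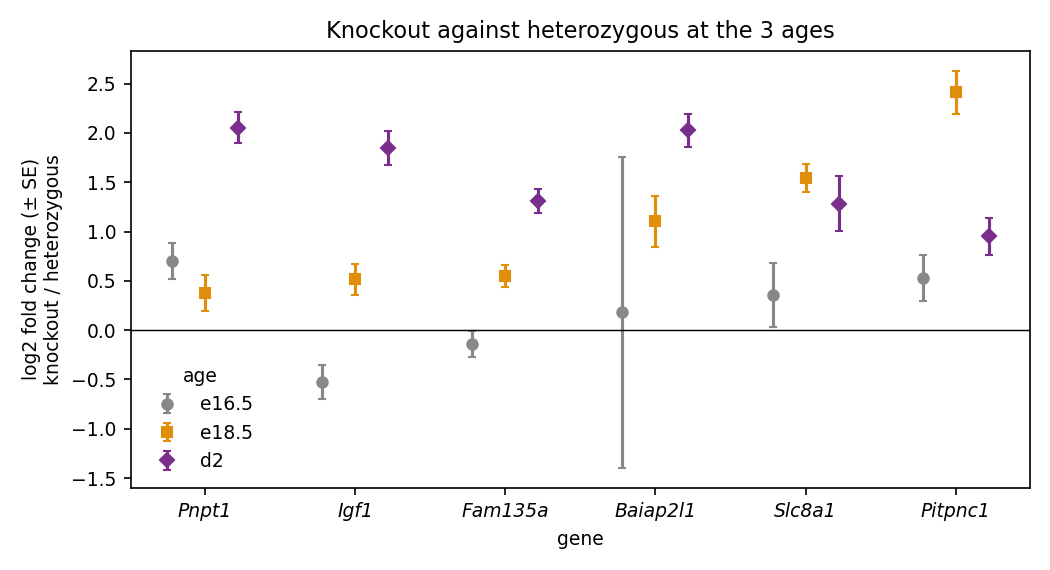
Log2 fold change of knockout over heterozygous (y axis, ± SE from the edgeR fit) for each gene (x axis) at e16.5 (circles), e18.5 (squares) and d2 (diamonds). Slc8a1 and Pitpnc1 have their highest value at e18.5 and the other 4 genes at d2, and the SE of Baiap2l1 at e16.5 is 1.58.

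Baiap2l1, the I-BAR protein, differed from the rest in its spread within groups. Knockout libraries of d2 held 252, 189, 188 and 229 CPM, against 62.4, 63.3, 41.6 and 42.5 CPM in heterozygous libraries, a log2 fold change of 2.03 ± 0.17 (SE). At e18.5 it lay at 121, 105 and 114 CPM in knockout, against 37.3, 83.8 and 36.9 CPM in heterozygous libraries, a log2 fold change of 1.10 ± 0.26. The knockout values were close together, whereas heterozygous replicate 2 stood well above the other heterozygous values, and without it the log2 fold change was 1.61.

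At e16.5 Baiap2l1 was either high or low in each library, in both genotypes. It lay at 14.3, 187 and 14.8 CPM in knockout libraries, against 156, 17.8 and 16.1 CPM in heterozygous libraries. Knockout replicate 2 and heterozygous replicate 1 were thus high and the other 4 libraries low, from 181 to 2380 counts in knockout and from 170 to 1786 counts in heterozygous libraries. The highest library was 13.1 times the lowest within knockout and 9.64 times within heterozygous cells. Of 8928 genes with a mean of at least 10 CPM at e16.5, 2 had a ratio of at least 9.64 within both genotypes, Baiap2l1 and Rpl3 (named after its values were seen). Rpl3, a ribosomal protein gene, was high in other libraries (1.26, 2.43 and 31.3 CPM in knockout, 1.48, 19.3 and 10.2 CPM in heterozygous). The median of that ratio over the 8928 genes was 1.21. The log2 change of Baiap2l1 between e16.5 and d2 was 1.40 ± 0.88 (SE) in knockout cells, or 3.70 without knockout replicate 2 of e16.5, and -0.43 ± 0.85 in heterozygous cells, or 1.498 without heterozygous replicate 1 of e16.5.

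By RefSeq gene order, Baiap2l1 overlaps the protein-coding gene Bri3 and the non-coding gene Gm15708, and both have counts of their own. The strand setting of the counting is not given in the sources used here, so reads of overlapping genes may be shared. At e16.5 Bri3 lay at 6.22, 4.63 and 4.76 CPM in knockout, against 5.14, 5.99 and 8.55 CPM in heterozygous libraries. It was thus not high in the libraries in which Baiap2l1 was high. Gm15708 measured 6.06 ± 3.09 CPM in knockout and 1.71 ± 0.997 CPM in heterozygous cells at d2 (SD, n = 4), and 1.06 ± 0.784 and 2.36 ± 0.590 CPM at e16.5 (n = 3). Of the I-BAR proteins and their partners edgeR called 0 of 17 at each embryonic age and 0 of 19 at d2. Of these, 0, 2 and 3 had an unadjusted p under 0.05, and DESeq2 called 0, 0 and 2 (Mtss1l and Wasl). Without knockout replicate 2 of d2 edgeR called 1 of 19 higher, Wasl, and the calls of the other lists and markers were the same in number as with it.

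The rule that chose the genes does not name e16.5, so p-values are given for the comparison of knockout with heterozygous cells there. The genes were chosen with earlier results of these data known, and how they were taken from all that meet the rule is not stated. The comparison at e16.5 is therefore not a fully independent test. None of the 6 genes passed (0 calls by edgeR, 0 by DESeq2), while 3 reached an unadjusted p under 0.05, as did 7.73% of all genes. Of these 3, Pnpt1 and Pitpnc1 were higher in knockout and Igf1 was lower. Over all 16384 genes 1 was called (0.0061%), Tex15 itself, and it was lower. Pnpt1 lay at 154, 183 and 195 CPM in knockout, against 119.8, 130.0 and 78.3 CPM in heterozygous libraries. Its groups did not overlap, as was so, with knockout above, for 6.19% of all genes, and the log2 fold change was 0.70 ± 0.18 (SE; adjusted p = 0.629, edgeR). Pitpnc1 lay at 57.1, 65.3 and 56.6 CPM in knockout, against 45.7, 53.8 and 24.6 CPM in heterozygous libraries. The same was so for these groups (log2 fold change 0.53 ± 0.24 SE; adjusted p = 0.641, edgeR).

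Igf1 went the other way at e16.5, at 79.8, 84.7 and 115 CPM in knockout against 112, 147 and 143 CPM in heterozygous libraries. The groups overlapped by 1 library. No listed gene lay wholly below the heterozygous libraries, as 6.63% of all genes did, and the log2 fold change was -0.53 ± 0.17 (SE; adjusted p = 0.629, edgeR). Fam135a lay at 530.1, 613 and 577 CPM in knockout, against 626, 706 and 566 CPM in heterozygous libraries (log2 fold change -0.14 ± 0.13 SE; adjusted p = 0.779, edgeR). Slc8a1 lay at 76.4, 29.8 and 35.7 CPM in knockout, against 24.9, 38.0 and 48.0 CPM in heterozygous libraries. Its log2 fold change of 0.36 ± 0.33 (SE; adjusted p = 0.779, edgeR) became -0.17 without knockout replicate 1. Baiap2l1 had a log2 fold change of 0.18 ± 1.58 (SE; adjusted p = 0.98, edgeR), and its sign turned without knockout replicate 2 or heterozygous replicate 2 or 3.
A p above the threshold does not show that the levels were equal at this age.

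Igf1 and Fam135a had similar profiles over the 20 libraries, and Zfp53, a gene outside the list, was closer still to Fam135a. Likeness was measured as the root-mean-square difference of log2(CPM + 0.5), each gene centred on its own mean, among 11393 genes with a mean of at least 5 CPM. It is a description over libraries that share their depth and scaling. They include the e18.5 and d2 libraries by which the 6 were chosen, so likeness between listed genes follows in part from that choice. Fam135a was the nearest gene to Igf1 (0.33), and the next closest pair of listed genes was Pnpt1 and Fam135a (0.51). The nearest gene to Fam135a was Zfp53, a zinc finger gene, at 0.12, followed by Fancd2os at 0.27 and Atad2 at 0.297. Zfp53 and Atad2 were themselves called higher in knockout at d2. Zfp53 measured 15.9 ± 0.733, 12.6 ± 0.851 and 14.4 ± 1.97 CPM in knockout cells at e16.5, e18.5 and d2, and 16.0 ± 0.717, 8.30 ± 0.284 and 6.19 ± 0.755 CPM in heterozygous cells (SD, n = 3, 3 and 4). CPM takes no account of gene length. The CPM of Fam135a was 32.5 to 46.3 times that of Zfp53 in all 20 libraries, with a median of 36.1. Zfp53 had 52 to 226 counts, which alone give a counting error of 0.14 on the same scale, no smaller than the difference found.

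**Figure D3:**
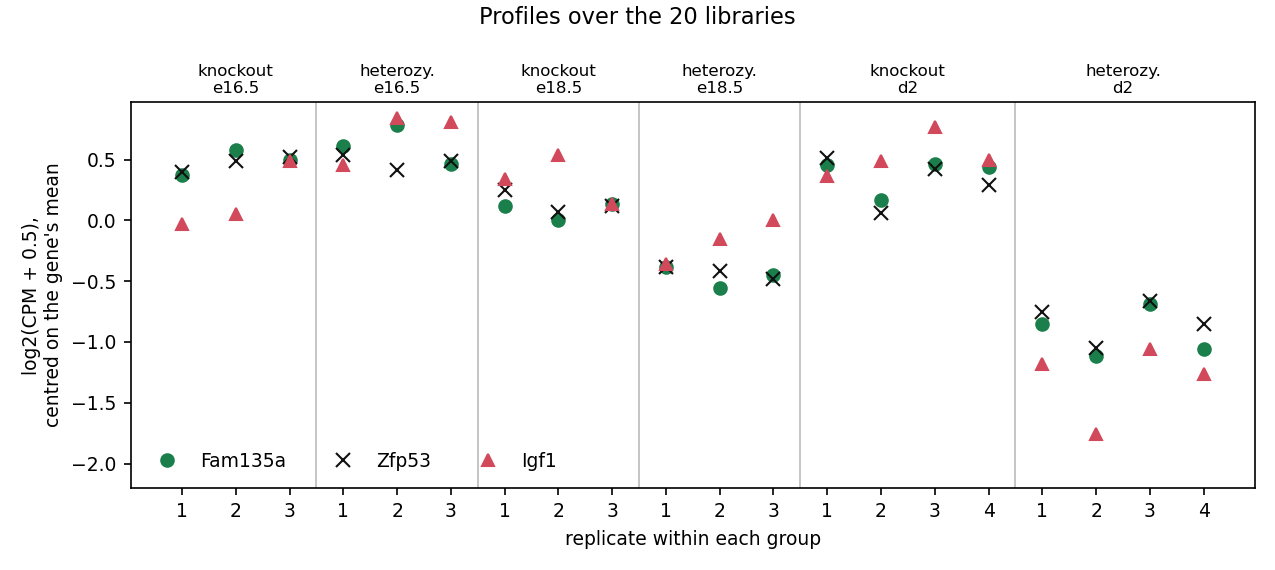
Centred log2(CPM + 0.5) (y axis) of Fam135a (circles), Zfp53 (crosses) and Igf1 (triangles) in each of the 20 libraries, by group and replicate (x axis). Fam135a and Zfp53 lie close together in most libraries (root-mean-square difference 0.12), and the heterozygous d2 libraries are the lowest for all 3 genes.

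The other listed genes had less close neighbours. For Pnpt1 the nearest were Slc25a40 (0.45), of the mitochondrial carrier family, Zfp62 (0.47) and Zfp846 (0.496). For Slc8a1 they were Csgalnact1 (0.48), Sfi1 (0.48) and Slc4a10 (0.51), of which Sfi1, a centrosome gene, measured 195 ± 41.5 CPM in knockout and 90.4 ± 7.48 CPM in heterozygous cells at e18.5 (SD, n = 3). For Pitpnc1 they were the histone acetyltransferase gene Kat2b (0.57), Shcbp1 (0.57) and Nmi (0.596). For Baiap2l1 they were farther off, with Nt5e at 0.96, Nxt2 at 1.01 and Chml at 1.01. Of these neighbours Zfp62, Zfp846 and Chml were called higher in knockout at d2, Slc4a10 at e18.5, and Sfi1 and Kat2b at both ages.

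The genes beside the 6 on the chromosome were compared next, a choice made with the data known. The nearest protein-coding gene in the tables on each side gave 12 genes. EdgeR called 0 of 9 tested at each embryonic age and 0 of 8 at d2, where 0.0061% (e16.5), 2.33% (e18.5) and 2.8% (d2) of all genes were called in either direction. None had an unadjusted p under 0.05 at any age, and DESeq2 called 0. Their log2 fold changes ran from -0.42 to 0.48 at e16.5, from -0.44 to 0.32 at e18.5, and from -0.23 to 0.39 at d2. Cfap36, beside Pnpt1, measured 54.4 ± 19.3 CPM in knockout and 42.8 ± 14.5 CPM in heterozygous cells at d2 (SD, n = 4), and Psmd12, beside Pitpnc1, 307 ± 31.1 CPM and 298 ± 37.5 CPM at e18.5 (n = 3).

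**Figure D4:**
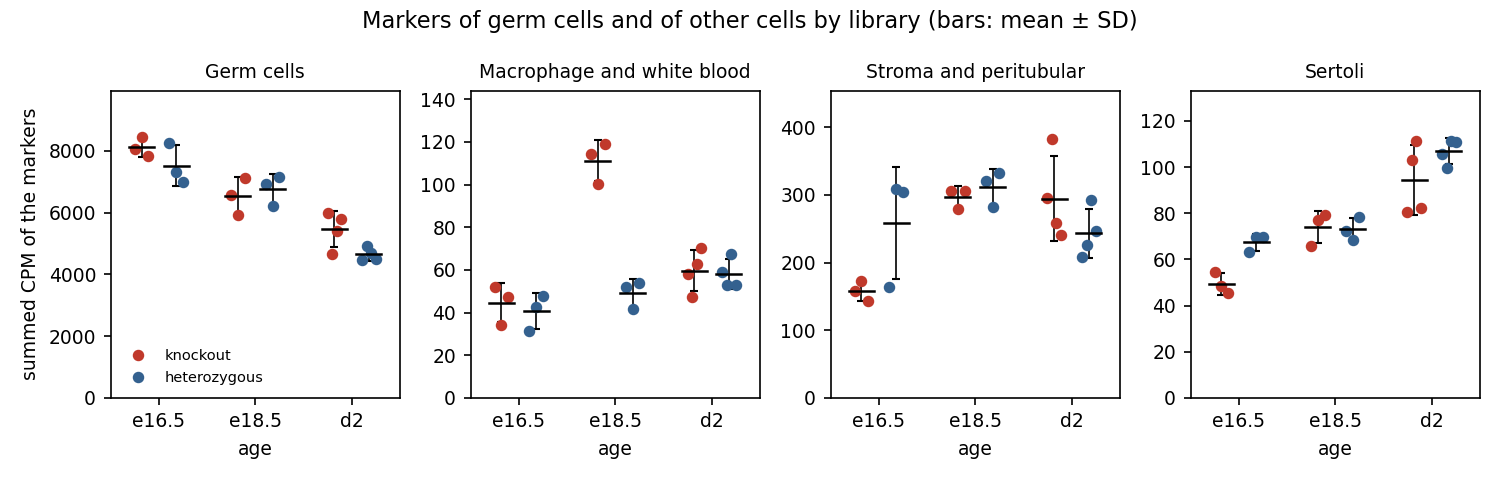
Summed CPM of marker genes (y axis) of germ cells, macrophages and white blood cells, stroma and peritubular cells, and Sertoli cells in every library at e16.5, e18.5 and d2 (x axis), with knockout in red and heterozygous in blue; bars give the mean ± SD. At e18.5 the macrophage and white blood cell sum is 100.4 to 119 CPM in knockout and 41.8 to 53.8 CPM in heterozygous libraries. Of these sums Mrc1 alone makes up 65.7 to 80.9 and 16.3 to 26.2 CPM.

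A few markers of other cells also differed between genotypes. At e18.5, the age of the highest Slc8a1 and Pitpnc1 fold changes, 2 of 7 tested macrophage and white blood cell markers rose, the mannose receptor Mrc1 and Adgre1, out of 12 listed, where 2.06% of all genes rose. The median log2 fold change of the 7 was 0.11. Mrc1 lay at 65.7 to 80.9 CPM in knockout, against 16.3 to 26.2 CPM in heterozygous libraries. The summed level of all 12 was 100.4 to 119 CPM in knockout and 41.8 to 53.8 CPM in heterozygous libraries. At d2, where none of the 6 genes overlapped, the sum was 47.5 to 70.4 CPM in knockout and 52.7 to 67.6 CPM in heterozygous libraries, with C1qa and C1qc at 0 counts and 0 of 4 tested markers called by edgeR (0 at an unadjusted p under 0.05, 0 by DESeq2). At e16.5 edgeR called 0 of 7 of these markers (0 at an unadjusted p under 0.05, 0 by DESeq2). The part of these cells in the e18.5 values was not tested.

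Stroma and peritubular markers, of cells that are also known to express Igf1, summed to 143 to 172 CPM in knockout and 164 to 309 CPM in heterozygous libraries at e16.5. They summed to 279 to 306 and 282 to 333 CPM at e18.5, and to 241 to 383 and 208 to 293 CPM at d2. At e18.5, 1 of 13 rose, Dcn, and 1 fell, Pdgfrb, where 2.06% of all genes rose and 0.271% fell, and at e16.5 and d2 edgeR called 0 of 13 (7 and 4 at an unadjusted p under 0.05; 0 and 1 by DESeq2, Col1a2 at d2). Sertoli markers summed to 45.3 to 54.5 CPM in knockout and 63.3 to 69.6 CPM in heterozygous libraries at e16.5, where edgeR called 0 of 9 (4 at an unadjusted p under 0.05, 0 by DESeq2). Leydig markers were at 24.2 to 33.1 CPM in knockout and 29.9 to 110.2 CPM in heterozygous libraries at e16.5, with the defining gene Insl3 at 0 counts at all ages. Of 9 Sertoli markers tested at d2, 1 was called lower, Sox9, where 0.776% of all genes were, and the median log2 fold change of the 9 was 0.14 (-0.03 over 11 tested without knockout replicate 2). Sox9 lay at 9.88 ± 3.46 CPM in knockout and 23.7 ± 5.26 CPM in heterozygous cells (SD, n = 4; adjusted p = 0.0188, edgeR). Endothelial markers summed to 363 to 401 CPM in knockout and 303 to 351 CPM in heterozygous libraries at e16.5. Every knockout sum lay above every heterozygous one. Most of each sum was Vwf, at 301 ± 24.6 and 246 ± 37.4 CPM, while Cdh5 lay at 32.2 ± 5.59 and 38.5 ± 6.41 CPM (SD, n = 3). The median log2 fold change of the 6 endothelial markers tested at e16.5 was -0.26, and that of the 9 Sertoli markers was -0.50. At d2 endothelial markers summed to 88.0 to 143 CPM in knockout and 109.9 to 158 CPM in heterozygous libraries. Of 7 tested at d2, 1 was called lower, Vwf, where 0.776% of all genes were. The median log2 fold change of the 7 was 0.09 (-0.07 without knockout replicate 2). The Hba-a1, Hba-a2, Hbb-b1 and Hbb-b2 globin genes were at 0 counts at all ages, and red blood cell markers summed to at most 19.3 CPM in any library. Of Leydig markers edgeR called 0 of 7, 0 of 6 and 0 of 4 in age order (4, 1 and 0 at an unadjusted p under 0.05, 0 by DESeq2), of Sertoli markers 0 of 11 at e18.5 (0 and 0), and of red blood cell markers 0 of 2, 0 of 2 and 0 of 1 (0 and 0). The embryonic ages gave 0 calls of 6 and 0 of 7 endothelial markers (0 and 1 at an unadjusted p under 0.05, 0 by DESeq2). The part of these cells in the e16.5 difference of Igf1 was not tested.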

How the data were processed

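Male germ cells were sorted by green fluorescence, and RNA was isolated with a PicoPure kit and amplified and made into libraries with NuGEN Ovation kits, per the labels' protocols. The authors deposited 1 table of read counts per age, with gene rows (24495, 24495 and 24341) and 1217 repeat rows. The submitters' processing notes name STAR, featureCounts, Bowtie, edgeR and mm9, with no versions. How multiply mapped reads and strand were treated is not given in the sources used here.

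From the deposited counts, genes were tested at each age with edgeR 4.0.16 (R 4.3.3; quasi-likelihood test, robust, filterByExpr at its minimum count of 10, TMM scaling, Benjamini-Hochberg adjustment over all genes tested, threshold 0.05). Library size was the sum of gene rows, and CPM (counts-per-million) was computed on it after TMM. The SE of a log2 fold change is its size over the square root of F. Changes with age came from 1 edgeR fit of all 20 libraries on 23853 common symbols and are given without p-values. Each age is its own table, and the d2 table has fewer gene rows. Age therefore cannot be told apart from differences between the tables. The fitting code was tested on simulated data. DESeq2 1.42.0, median-ratio size factors, other filters, a replicate block, 1 fit of all ages, repeats in the fit and leaving out each library were the alternatives. Python 3.11.15 was used for summaries.

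The 6 genes and all lists were chosen with earlier results of these data known. Named besides were called genes of each list, the 3 nearest profiles (leaving out Gm and Rik symbols) and the genes on either side of the level limit. Depth was 7775062 to 14202847 gene counts per library. The repeat rows were used only in the total counts and in the alternative fit that includes them.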

Additional observations from a re-analysis of the deposited data

Results flagged for a closer look

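In the 4 knockout libraries of d2, replicate 2 stood apart from the others for 2 of 7 genes examined (the 6 and Tex15). No heterozygous library of d2 did for any of the 7, and chance flags about 1 in 20 groups. Tex15 lay at 104 CPM there, against 2.07 to 2.62 CPM in the other knockout libraries and 631 to 1024 CPM in heterozygous libraries. Fam135a lay at 460.1 CPM there, the lowest of the knockout values, against 555 to 566 CPM in the other 3. Without this library all 6 genes were still called higher in knockout at d2, and the number of all genes called was 573, against 430 with it.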

How the results depend on the processing

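At e16.5 edgeR called 1 gene, against 22 with DESeq2, 2 with no filter, 0 with all ages in 1 fit and 1 to 25 when a library was left out (25 without heterozygous replicate 1). At e18.5 it called 422, against 152 with all ages in 1 fit and 274 to 505 with a library left out. At d2 it called 430, against 768 with DESeq2, 235 with the replicate block, 770 with all ages in 1 fit and 187 to 573 with a library left out. Of the 6 genes, 0 were called at e16.5 under any alternative, 3 to 5 at e18.5 and 5 or 6 at d2. Baiap2l1 was not called at e18.5 by DESeq2, with no filter or with all ages in 1 fit, nor at d2 with all ages in 1 fit. Igf1 was called at e18.5 with the replicate block and in some fit that leaves out a library. Slc8a1 was not called at d2 with the replicate block. Correlations of same-numbered deviations ran from -0.277 to 0.112, and each library correlated best with its own number at e18.5 only. No pairing by replicate number was thus seen across the libraries of e16.5 or d2. Such correlations cannot show that libraries were unpaired, and a pairing was not settled at any age. The log2 fold changes of knockout over heterozygous kept their direction in 73 of 78 values at e16.5, 78 of 78 at e18.5 and 90 of 90 at d2. That of Baiap2l1 at e18.5 was 1.61 without heterozygous replicate 2, against 1.10. At e16.5 Baiap2l1 turned to -0.0822 with the replicate block and ran from -2.13 to 2.10 with a library left out, and Slc8a1 from -0.17 to 0.60. Of 864 changes with age 17 reversed. The Baiap2l1 change in heterozygous cells from e18.5 to d2 was -0.0585 with DESeq2 and -0.0563 with median-ratio factors, and -0.18 to 0.51 with a library left out. Its changes from e16.5 ran from -0.95 to 1.48 (to e18.5) and -0.899 to 1.498 (to d2) in heterozygous cells, and from -0.0663 to 2.75 (to e18.5) in knockout cells. Igf1 in knockout cells from e16.5 to e18.5 was 0.0158 with DESeq2 and 0.0159 with median-ratio factors, and -0.16 to 0.12 with a library left out. Pitpnc1 in knockout cells from e18.5 to d2 was 0.0297 with repeats in the fit, and -0.18 to 0.15 with a library left out. The cause was not tested. Depth sets the precision, and the lowest count of a listed gene in a library was 98.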
